A study of Mus musculus with 13 samples.

Results

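Toll-like receptors (TLRs) and their signalling partners were followed as a list of 38 genes, grouped by name and function. The list holds the receptors Tlr1 to Tlr4, Tlr6 to Tlr9 and Tlr13, their co-receptors, adaptors, kinases and transcription factors, and the inflammasome, C-type lectin, NOD and oxidase genes that work beside them. All 38 were found in each table of the series, among 23337 genes in the EKLF+/+ and EKLF-/- libraries, 35454 in the EKLF/GFP libraries and 54227 in single cells.

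The study sequenced RNA of F4/80+ cells sorted from E13.5 mouse fetal livers. EKLF (Klf1) is a zinc finger transcription factor known for its role in red cell formation, and F4/80 is a surface protein of macrophages encoded by Adgre1. The 12 bulk libraries form 4 groups of 3 biological replicates, which ask what differs in F4/80+ cells without EKLF and in F4/80+ cells that express it. EKLF+/+ cells came from wild type embryos and EKLF-/- cells from embryos null for EKLF throughout the body, so that every cell of the liver lacks the factor. EKLF/GFP+ and EKLF/GFP- cells were both sorted from wild type embryos carrying the pEKLF-GFP transgene, in which the EKLF promoter drives green fluorescent protein (GFP), so the sort reports activity of that promoter and not EKLF protein. GFP+ RNA was prepared with another kit than the RNA of the other groups, and kit and group cannot be told apart. The study gives a lower RNA integrity for the GFP+ population than for the EKLF+/+ and EKLF-/- samples, and names none for EKLF/GFP-. The labels give the strain C57BL/6 for all samples, whereas the study's key resources place the EKLF-null line in a 129S4/SvJae background. A single-cell library was made from 1 wild type F4/80+ sample, purified with magnetic beads and not by the flow cytometric sort of the bulk cells, and allows no test.

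TLRs are membrane receptors that recognise conserved microbial molecules, at the cell surface or inside endosomes. Most signal through the adaptor MyD88 to IRAK kinases and the ligase TRAF6, which release NF-kB and activate interferon regulatory factors. Monocytes, neutrophils and macrophages are the best known carriers of this machinery, and the fetal liver holds all of these cells beside the erythroblasts that surround its macrophages.

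Normalized counts are read counts scaled to the mean effective library size of a comparison, and they were not divided by gene length. Triplets of values below follow replicates 1, 2 and 3. A gene was called when the quasi-likelihood test of edgeR gave an adjusted p (Benjamini-Hochberg, over every gene tested) under 0.05. These p-values measure the spread between the libraries deposited. Klf1 itself had 4731, 3977 and 4906 normalized counts in EKLF+/+ and 766.7, 838 and 745.5 in EKLF-/- (log2 fold change -2.53, standard error 0.12, edgeR adjusted p = 7.22e-06). Reads were thus still counted on Klf1 in EKLF-/-. In the sorted cells it had 2626, 2355 and 2278 in EKLF/GFP+ and 903, 1194 and 747 in EKLF/GFP- (log2 fold change 1.35, standard error 0.16, edgeR adjusted p = 0.000316).

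The libraries held 10695514 to 15362161 counts on genes in EKLF+/+ and EKLF-/- and 22723199 to 28736342 in the EKLF/GFP groups. Markers of other cells than macrophages were present in every F4/80+ group. In EKLF/GFP+, all 6 monocyte-like, all 7 neutrophil-like and all 4 granulocyte-monocyte progenitor-like markers tested were lower than in EKLF/GFP-, with summed levels of 2781 to 3630 against 22110 to 24920, 2928 to 7696 against 35410 to 50670 and 9600 to 12460 against 75240 to 81570 normalized counts. All 11 erythroid-like markers tested were higher there, at 327800 to 415500 against 175600 to 241200. Of 12 macrophage-like markers tested, Csf1r alone was lower, and the sums were 5112 to 14310 against 8768 to 13200. In EKLF-/- against EKLF+/+, 3 of 6 neutrophil-like markers tested (35410 to 64450 against 20470 to 32360), 3 of 4 granulocyte-monocyte progenitor-like markers (67030 to 136700 against 46240 to 63860) and 1 of 6 monocyte-like markers (8641 to 13660 against 6819 to 8332) were higher. The macrophage-like list had 3 of 12 markers lower (4034 to 6102 against 4008 to 4829) and the erythroid-like list 6 of 8 (41850 to 55300 against 164000 to 219300). Endothelial-like markers were lower in both comparisons, 4 of 6 in each (1649 to 2329 against 4088 to 4771 in EKLF/GFP+, and 1541 to 1696 against 2382 to 2772 in EKLF-/-). All 4 progenitor-like and all 4 lymphoid-like markers tested and 3 of 4 dendritic cell-like markers were lower in EKLF/GFP+, and 5 of 6 megakaryocyte-like markers were higher there. In EKLF-/-, 5 of 7 mesenchymal-like and 2 of 4 progenitor-like markers (Kit and Myb) and the dendritic cell-like marker Flt3 were lower, and 2 of 5 mast cell- or basophil-like markers (Prss34 and Hdc) were higher. The highest sums of the neutrophil-like, monocyte-like and granulocyte-monocyte progenitor-like lists among the EKLF+/+ and EKLF-/- libraries were all in EKLF-/- replicate 2. The macrophage marker Vsig4 had at most 1 read in any EKLF+/+ or EKLF-/- library. The globin gene Hba-a1 was at 0 there and Hba-a2 had at most 1 read, while Hbb-bs had 62340 to 99950 normalized counts in EKLF+/+. In the EKLF/GFP libraries, counted by another program, Hba-a1 had 40210 to 81680. The 0 is therefore not read as a lack of expression. The shifts of the marker lists move with the results below, and their part in them was not tested. In bulk RNA, fewer cells of a type and less RNA per cell cannot be told apart.

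In EKLF/GFP+ cells the innate genes were lower as a group than in EKLF/GFP- cells. Of the 37 members tested, 27 were lower, where 25.8% of all 14248 genes tested were, and none was higher, where 18.9% of all genes were. No member was higher at an unadjusted p under 0.05 either, where 22.6% of all genes were, and DESeq2 also gave 27 lower and 0 higher, where 24.3% and 21.4% of all genes were. The median log2 fold change of the members was -1.42, against -0.0134 over all genes. A fall of at least 2-fold was seen for 22 members, all of them called, where 14.7% of all genes passed both limits, and a called rise of that size for none, where 4.99% of all genes passed. In 28 members every GFP+ library lay below every GFP- library, as did 30.5% of all genes, and in none did every GFP+ library lie above, as did 25.2% of all genes. Summed over the 38 genes, the libraries held 345.9, 357 and 429 CPM (counts scaled to a common library total) in EKLF/GFP+ and 953, 868 and 963 in EKLF/GFP-.

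**Figure D1:**
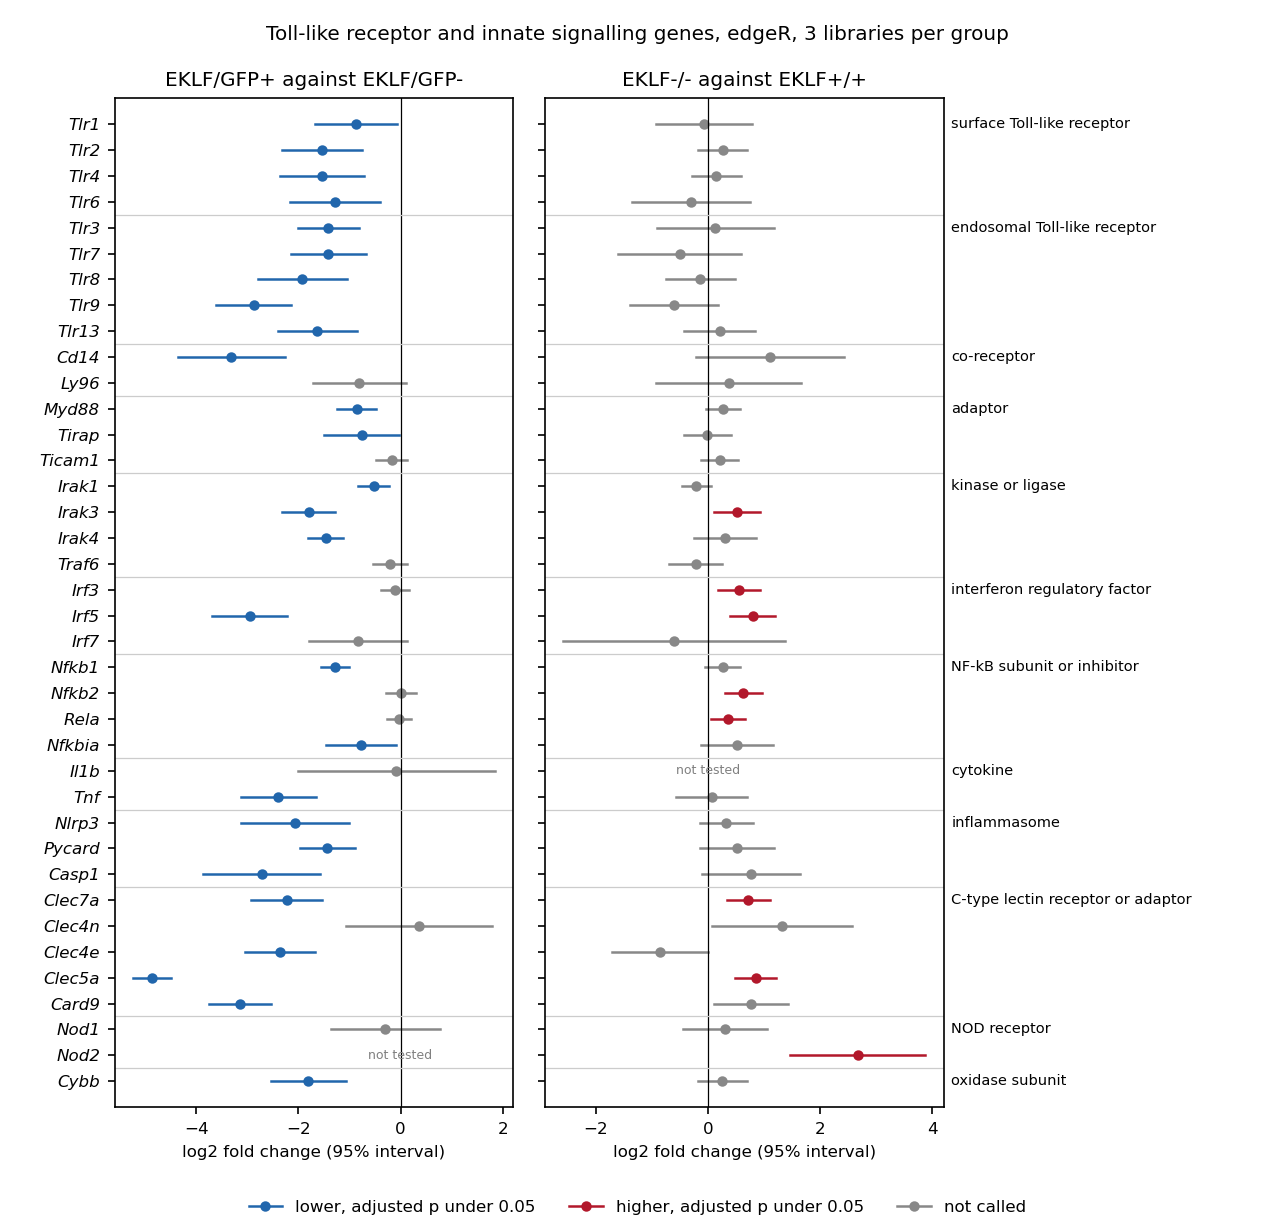
The log2 fold change of each member is plotted for EKLF/GFP+ against EKLF/GFP- (left) and EKLF-/- against EKLF+/+ (right), grouped by role, with points for edgeR estimates and bars for 95% intervals (3 libraries per group). Blue marks members called lower (27 on the left), red those called higher (8 on the right) and grey those not called, and 1 member was not tested on each side.

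All 4 TLRs of the cell surface were lower in EKLF/GFP+, with a median log2 fold change of -1.41. Tlr4, the receptor for bacterial lipopolysaccharide, had 138, 293 and 364.5 normalized counts in EKLF/GFP+ and 747, 720.4 and 836 in EKLF/GFP- (log2 fold change -1.54, standard error 0.30, edgeR adjusted p = 0.00369). Tlr2, which recognises bacterial lipoproteins together with TLR1 or TLR6, had 120.2, 223 and 292 normalized counts in EKLF/GFP+ and 634, 533 and 669.9 in EKLF/GFP- (log2 fold change -1.53, standard error 0.28, edgeR adjusted p = 0.00274). For both receptors the 3 GFP+ libraries were low and the groups did not overlap, and GFP+ replicate 1 was the lowest library. Tlr1 and Tlr6, the partners of TLR2, had log2 fold changes of -0.88 (edgeR adjusted p = 0.0381) and -1.28 (edgeR adjusted p = 0.0113). The call of Tlr1 was lost without EKLF/GFP+ replicate 2 or without any one of the EKLF/GFP- replicates, with adjusted p-values of 0.102, 0.0962, 0.0756 and 0.0754, and also with a correction for transcript length (0.0533) and with limma (0.0637). That of Tlr6 was lost without EKLF/GFP+ replicate 2 (adjusted p = 0.0516) and with the same length correction (adjusted p = 0.308).

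The 5 endosomal TLRs, which sense nucleic acids, were all lower as well, with a median log2 fold change of -1.63. Tlr9, the receptor for unmethylated CpG DNA, had 25.6, 30.3 and 53 normalized counts in EKLF/GFP+ and 290, 239.8 and 270.2 in EKLF/GFP- (log2 fold change -2.88, standard error 0.26, edgeR adjusted p = 8.55e-05). Tlr8, an RNA sensor, had 56.8, 128 and 157 normalized counts in EKLF/GFP+ and 438, 403 and 448 in EKLF/GFP- (log2 fold change -1.92, standard error 0.31, edgeR adjusted p = 0.00146). Each GFP- library held more than any GFP+ library for both, and for Tlr9 the mean was 7.35-fold lower in GFP+. Tlr3, the receptor for double-stranded RNA, and Tlr7 and Tlr13, which sense single-stranded and bacterial ribosomal RNA, had log2 fold changes of -1.42, -1.42 and -1.63. The call of Tlr3 was lost only with the correction for transcript length (adjusted p = 0.054), out of 15 alternatives.

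Of the co-receptors that present lipopolysaccharide to TLR4, Cd14 was lower. It had 7.58, 11.9 and 22.8 normalized counts in EKLF/GFP+ and 122, 179 and 121 in EKLF/GFP- (log2 fold change -3.32, standard error 0.38, edgeR adjusted p = 0.000232), and the groups lay far apart. Ly96, which encodes MD-2, had 52.1, 89.8 and 114 normalized counts in EKLF/GFP+ and 159, 101 and 188 in EKLF/GFP- (log2 fold change -0.81, standard error 0.33, edgeR adjusted p = 0.0796). GFP+ replicate 3 lay above GFP- replicate 2, so the groups overlapped, and without EKLF/GFP- replicate 2 Ly96 passed the test (adjusted p = 0.0387), as it did with the correction for transcript length (0.0393).

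The adaptors and kinases differed among themselves. Myd88, the adaptor shared by most TLRs, had 432, 315 and 331 normalized counts in EKLF/GFP+ and 595, 659.8 and 705 in EKLF/GFP- (log2 fold change -0.86, standard error 0.14, edgeR adjusted p = 0.00149). Tirap, which bridges TLR2 and TLR4 to MyD88, had 75.8, 40.05 and 73.7 normalized counts in EKLF/GFP+ and 125, 103 and 94.1 in EKLF/GFP- (log2 fold change -0.76, standard error 0.27, edgeR adjusted p = 0.0483). All GFP+ libraries were below the GFP- libraries for both genes, but the call of Tirap was lost in 10 of 15 alternatives, among them leaving out any single library except EKLF/GFP+ replicate 1 (adjusted p 0.097 and 0.0561 without GFP+ replicates 2 and 3, and 0.155, 0.0844 and 0.0593 without GFP- replicates 1 to 3). Ticam1, the adaptor TRIF of TLR3 and TLR4, was not called (log2 fold change -0.18). Irak4, the first kinase in the chain, had 257.5, 223 and 273 normalized counts in EKLF/GFP+ and 676, 633 and 777 in EKLF/GFP- (log2 fold change -1.47, standard error 0.12, edgeR adjusted p = 5.47e-05). Its GFP- libraries all lay above the GFP+ libraries. Irak1, the kinase that it activates, was called at a smaller size (log2 fold change -0.53, edgeR adjusted p = 0.00518), a call that was lost with limma (adjusted p = 0.065), and Traf6, the ubiquitin ligase that follows, was not called (log2 fold change -0.21).

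Among the transcription factors of the pathway, those of the NF-kB and IRF families did not move as one. Nfkb1, which encodes the p105 precursor of p50, had 1162, 966 and 1055 normalized counts in EKLF/GFP+ and 2746, 2656 and 2347 in EKLF/GFP- (log2 fold change -1.28, standard error 0.10, edgeR adjusted p = 3.85e-05). Nfkbia, the inhibitor IkBα, had 150.5, 147 and 280.4 normalized counts in EKLF/GFP+ and 311, 348 and 328 in EKLF/GFP- (log2 fold change -0.77, standard error 0.25, edgeR adjusted p = 0.034). Nfkb1 was low in every GFP+ library, whereas for Nfkbia GFP+ replicate 3 stood near the GFP- libraries, and its call was lost when EKLF/GFP+ replicate 1 or 2 (adjusted p = 0.106 and 0.131) or any one GFP- replicate was left out (0.0709, 0.0842 and 0.0684). It was also lost with the correction for transcript length (0.0646) and with limma (0.0602). Rela, the p65 subunit, and Nfkb2, the p100 precursor of p52, had log2 fold changes of -0.03 and 0.01 and were not called, with 95% intervals of -0.27 to 0.21 and -0.29 to 0.31. Irf3, which turns on interferon genes downstream of TRIF, was not called (log2 fold change -0.11). Irf7, the factor that amplifies the interferon response, had 64.4, 85.5 and 61.3 normalized counts in EKLF/GFP+ and 167, 64.3 and 146 in EKLF/GFP- (log2 fold change -0.84, standard error 0.35, edgeR adjusted p = 0.0863). GFP- replicate 2 lay among the GFP+ libraries, and without it Irf7 was lower in GFP+ (adjusted p = 0.0056).

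The genes of the inflammasome, the complex in which NLRP3 and the adaptor ASC (Pycard) activate caspase-1 to process interleukin-1β, were all lower, with a median log2 fold change of -2.06. Casp1 had 48.3, 163.5 and 172 normalized counts in EKLF/GFP+ and 818, 646 and 1054 in EKLF/GFP- (log2 fold change -2.72, standard error 0.41, edgeR adjusted p = 0.00104). Nlrp3 had 26.5, 67.1 and 90.3 normalized counts in EKLF/GFP+ and 307, 205 and 254 in EKLF/GFP- (log2 fold change -2.06, standard error 0.38, edgeR adjusted p = 0.00292). In both, GFP+ replicate 1 was the lowest library and the groups stood apart. Pycard had a log2 fold change of -1.44. Of the cytokines, Tnf was lower (log2 fold change -2.39), with at most 52 normalized counts in any library, and Il1b, at 3.25 to 22.8 across all 6 libraries, was not called.

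The C-type lectin receptors and their adaptor held both the largest fall and the only positive estimate above 0.1. Clec5a, a receptor of myeloid cells that signals through DAP12, is described below with the members called in both comparisons. Card9, which links several of these receptors to NF-kB, had 89, 60.6 and 119 normalized counts in EKLF/GFP+ and 884, 759 and 744 in EKLF/GFP- (log2 fold change -3.15, standard error 0.22, edgeR adjusted p = 2.73e-05). Clec4e, the glycolipid receptor Mincle, had a log2 fold change of -2.37. Clec4n, the fungal receptor Dectin-2, had an estimate of 0.36 and was not called (edgeR adjusted p = 0.612). Its GFP+ libraries ran from 65.3 to 280.4 and its GFP- libraries from 95.6 to 227, so the groups overlapped widely. Nod1, a cytosolic receptor for bacterial peptidoglycan, had 45.5, 109 and 120.5 normalized counts in EKLF/GFP+ and 105, 79 and 154 in EKLF/GFP- (log2 fold change -0.30, standard error 0.38, edgeR adjusted p = 0.574), with overlapping groups. Nod2, its relative, had 1.89 to 4.33 in GFP+ and 5.51 to 10.3 in GFP- and fell under the limit on low counts. Cybb, the catalytic subunit of the phagocyte NADPH oxidase, had 710.1, 1246 and 1647 normalized counts in EKLF/GFP+ and 3925, 4104 and 4564 in EKLF/GFP- (log2 fold change -1.81, standard error 0.26, edgeR adjusted p = 0.000843), without overlap.

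In EKLF-/- cells fewer members were called, and those called were higher. Of the 37 members tested, 8 were higher than in EKLF+/+, where 9.72% of all 12753 genes tested were, and none was lower, where 10.6% of all genes were. One of the 8, Nod2, passed the limit on low counts only through the EKLF-/- libraries, which leaves 7 of the 36 others. At an unadjusted p under 0.05, 14 were higher and 1 was lower, where 19.2% and 19.4% of all genes were. DESeq2 gave 10 higher and 0 lower, where 11.7% and 13.6% of all genes were. The median log2 fold change was 0.26, against 0.0158 over all genes, and 27 members had a positive estimate. Every EKLF-/- library lay above every EKLF+/+ library in 15 members and below in 2, as did 22.9% and 23.4% of all genes. The count of 8 rested on single libraries. Without EKLF+/+ replicate 1, 2 or 3, respectively 3, 5 and 5 members were higher, where 2.75%, 3.33% and 2.94% of all genes were. Without EKLF-/- replicate 1, 2 or 3, the counts were 11, 5 and 4 of 36 members tested, where 13.7%, 10.2% and 3.37% of all genes were higher. Nod2 was not tested in these cases, since it no longer passed the limit on low counts. Leaving out EKLF-/- replicate 1 or 2 also gave 1 lower member in each case, Tlr9 and Clec4e, where 15% and 13.7% of all genes were lower. Summed CPM of the 38 genes was 898, 983 and 951 in EKLF+/+ and 1155, 1266 and 1171 in EKLF-/-, so that these groups did not overlap.

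Irf5, Clec5a, Clec7a and Irak3 were called in both comparisons, higher in EKLF-/- and lower in EKLF/GFP+. They are 4 of the 36 members tested in both, where 3.46% of the 11659 genes tested in both were called in these directions. These comparisons share no library. Across the 36 members, which are not independent replicates, the estimates of both comparisons were weakly related (Pearson's r = -0.138, Spearman's rho = -0.124). Of the 27 members lower in EKLF/GFP+, 23 were not called in EKLF-/-. Of the other members higher in EKLF-/-, Irf3, Nfkb2 and Rela were not called in EKLF/GFP+ and Nod2 was not tested there. A call in one comparison and not in the other does not show that a gene differs between them, and that difference was not tested.

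The promoter windows of these 4 genes are shown because they changed in both comparisons, in opposite directions. Each covers 250 bases before to 50 bases after a RefSeq start site in GRCm38.p6 and is written 5′ to 3′ along the gene's strand. Capitals mark matches, on either strand, to a CACCC box (CCNCNCCC), the class of site that EKLF binds, to a kappa B site (GGG and TTCC with any 3 bases between them) or to a PU.1 core (GAGGAAG). Matches of the CACCC box may overlap each other, and the TTCC of a kappa B site also lies in the reverse of a PU.1 core, so those may overlap too.
Irf5, chr6:29526375-29526674, plus strand: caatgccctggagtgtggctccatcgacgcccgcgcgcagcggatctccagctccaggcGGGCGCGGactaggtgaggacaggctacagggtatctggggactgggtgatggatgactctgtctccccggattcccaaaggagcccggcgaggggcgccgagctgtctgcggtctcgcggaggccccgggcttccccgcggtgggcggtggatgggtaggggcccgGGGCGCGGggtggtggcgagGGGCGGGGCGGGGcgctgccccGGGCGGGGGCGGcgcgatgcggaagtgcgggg
Clec5a, chr6:40585756-40586055, minus strand: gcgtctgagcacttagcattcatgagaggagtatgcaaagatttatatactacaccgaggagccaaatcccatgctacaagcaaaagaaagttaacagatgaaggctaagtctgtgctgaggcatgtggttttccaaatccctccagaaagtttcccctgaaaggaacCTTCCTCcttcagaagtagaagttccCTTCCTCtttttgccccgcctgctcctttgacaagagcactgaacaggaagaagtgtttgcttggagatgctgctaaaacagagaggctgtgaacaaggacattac
Clec7a, chr6:129472730-129473029, minus strand: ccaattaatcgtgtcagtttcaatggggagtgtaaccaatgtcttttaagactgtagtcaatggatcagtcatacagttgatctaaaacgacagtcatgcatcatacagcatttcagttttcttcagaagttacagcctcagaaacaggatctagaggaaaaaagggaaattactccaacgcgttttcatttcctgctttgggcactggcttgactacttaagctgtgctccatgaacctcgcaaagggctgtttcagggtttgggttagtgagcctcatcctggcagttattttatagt
Irak3, chr10:120201548-120201847, minus strand: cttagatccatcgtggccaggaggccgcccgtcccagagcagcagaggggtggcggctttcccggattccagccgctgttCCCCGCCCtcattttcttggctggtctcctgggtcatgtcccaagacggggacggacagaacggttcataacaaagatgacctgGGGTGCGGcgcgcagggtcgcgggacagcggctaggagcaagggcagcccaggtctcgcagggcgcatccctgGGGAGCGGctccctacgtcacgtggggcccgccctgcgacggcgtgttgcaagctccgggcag
The Irf5 window held 6 CACCC boxes, that of Irak3 held 3, that of Clec5a held 2 PU.1 cores, and that of Clec7a held none of the motifs. Second RefSeq windows of Clec7a and Irak3 held none either. A CACCC box was found in 49.5% of all 32851 windows of this length and in 22 of 42 windows of the 32 members with one. Kappa B sites were found in 5.56% of all windows and in 8 of the 42, and PU.1 cores in 13.6% and 9. A match describes letters in a window and says nothing of binding in these cells.

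Irf5, the transcription factor that drives inflammatory cytokine genes downstream of MyD88, lies on chromosome 6 from 29526625 to 29541871 (GRCm38). It had 444, 450.5 and 389.9 normalized counts in EKLF+/+ and 654, 889 and 695 in EKLF-/- (log2 fold change 0.80, standard error 0.14, edgeR adjusted p = 0.00819). In the sorted cells it had 54, 82.3 and 126 normalized counts in EKLF/GFP+ and 728, 619 and 674 in EKLF/GFP- (log2 fold change -2.95, standard error 0.26, edgeR adjusted p = 7.59e-05). All EKLF-/- libraries were above all EKLF+/+ libraries and all GFP+ libraries below all GFP- libraries. Both calls were kept in every alternative fit, but the rise in EKLF-/- did not reach the limit of a 2-fold change. Of its exon bases, 14.2% are shared with Tnpo3 on the opposite strand.

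Clec5a lies on chromosome 6 from 40574894 to 40585821. It had 456, 403.5 and 396 normalized counts in EKLF+/+ and 740.4, 853 and 668 in EKLF-/- (log2 fold change 0.85, standard error 0.13, edgeR adjusted p = 0.00385). The sorted cells held 30.3, 36.8 and 36.3 normalized counts in EKLF/GFP+ and 918, 1007 and 1103 in EKLF/GFP- (log2 fold change -4.87, standard error 0.14, edgeR adjusted p = 3.49e-06), a mean 29.2-fold lower in GFP+. Groups stood apart in both comparisons. The calls were kept in every alternative fit, but the rise in EKLF-/- did not reach the limit of a 2-fold change. Clec7a, which encodes the β-glucan receptor Dectin-1, lies on chromosome 6 from 129461591 to 129472779. It had 253, 315 and 309.8 normalized counts in EKLF+/+ and 450, 533 and 464 in EKLF-/- (log2 fold change 0.72, standard error 0.14, edgeR adjusted p = 0.0104). Sorted by GFP, it had 114, 196 and 247 normalized counts in EKLF/GFP+ and 943, 781 and 890.2 in EKLF/GFP- (log2 fold change -2.23, standard error 0.25, edgeR adjusted p = 0.000212). The groups did not overlap in either comparison. In EKLF-/- the call was lost without EKLF+/+ replicate 1 (adjusted p = 0.051), the library in which Clec7a was lowest.

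Irak3, a kinase-like protein that restrains TLR signalling, lies on chromosome 10 from 120141648 to 120202130. It had 193, 199 and 162.5 normalized counts in EKLF+/+ and 267, 292 and 232 in EKLF-/- (log2 fold change 0.51, standard error 0.15, edgeR adjusted p = 0.0436). By GFP it had 206, 208 and 318 normalized counts in EKLF/GFP+ and 977, 807 and 771 in EKLF/GFP- (log2 fold change -1.80, standard error 0.19, edgeR adjusted p = 0.000152). The EKLF-/- libraries lay above the EKLF+/+ libraries, but leaving out any one library ended that call (adjusted p 0.119, 0.099 and 0.145 without EKLF+/+ replicates 1 to 3, and 0.0616, 0.069 and 0.0715 without EKLF-/- replicates 1 to 3). The fall in EKLF/GFP+ was kept in every alternative. Of the estimated Irak3 TPM (the authors' measure of level per transcript length), 12.7% in EKLF/GFP+ and 17.8% in EKLF/GFP- was on coding transcripts, and the leading transcript was annotated as a retained intron.

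Nod2 had 3.62, 1.74 and 4.33 normalized counts in EKLF+/+ and 25.4, 18 and 18.1 in EKLF-/- (log2 fold change 2.67, standard error 0.43, edgeR adjusted p = 0.00467). Its raw counts were 3, 2 and 4 in EKLF+/+ and 28, 18 and 18 in EKLF-/-. Nod2 had at least 10 counts only in the EKLF-/- libraries and passed the limit on low counts through them alone, so it had to differ, and few reads stand behind the fold. Nod2 lies on chromosome 8 from 88647315 to 88688474, 3.74 Mb from Klf1 on the same chromosome. Sequence of another strain linked to the null allele cannot be told apart from the genotype at this gene. No other called member rose by at least 2-fold, where 2.16% of all genes passed both limits, and none fell that far, where 4.63% of all genes did.

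Irf3 had 761, 677.5 and 663 normalized counts in EKLF+/+ and 903, 1210 and 958 in EKLF-/- (log2 fold change 0.55, standard error 0.13, edgeR adjusted p = 0.0258). Nfkb2 had 288, 336 and 314 normalized counts in EKLF+/+ and 473, 512 and 465 in EKLF-/- (log2 fold change 0.63, standard error 0.12, edgeR adjusted p = 0.0103). Rela had 934, 972 and 860 normalized counts in EKLF+/+ and 1111, 1310 and 1124 in EKLF-/- (log2 fold change 0.36, standard error 0.11, edgeR adjusted p = 0.0499). In all of these the EKLF-/- libraries were the higher ones without overlap, and EKLF-/- replicate 2 was the highest. The call of Nfkb2 was lost without EKLF+/+ replicate 1 (adjusted p = 0.0578). That of Irf3 was lost without EKLF+/+ replicate 1, 2 or 3 (0.0696, 0.106 and 0.103) and without EKLF-/- replicate 3 (0.0632). That of Rela, at the edge of the threshold, was lost without any EKLF+/+ replicate (0.156, 0.118 and 0.166) and without EKLF-/- replicates 2 and 3 (0.0575 and 0.105). It was also lost with the size factors of DESeq2 (0.0561), with no filter on low counts (0.0596) and with at least 10 counts in every library (0.0566).

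**Figure D2:**
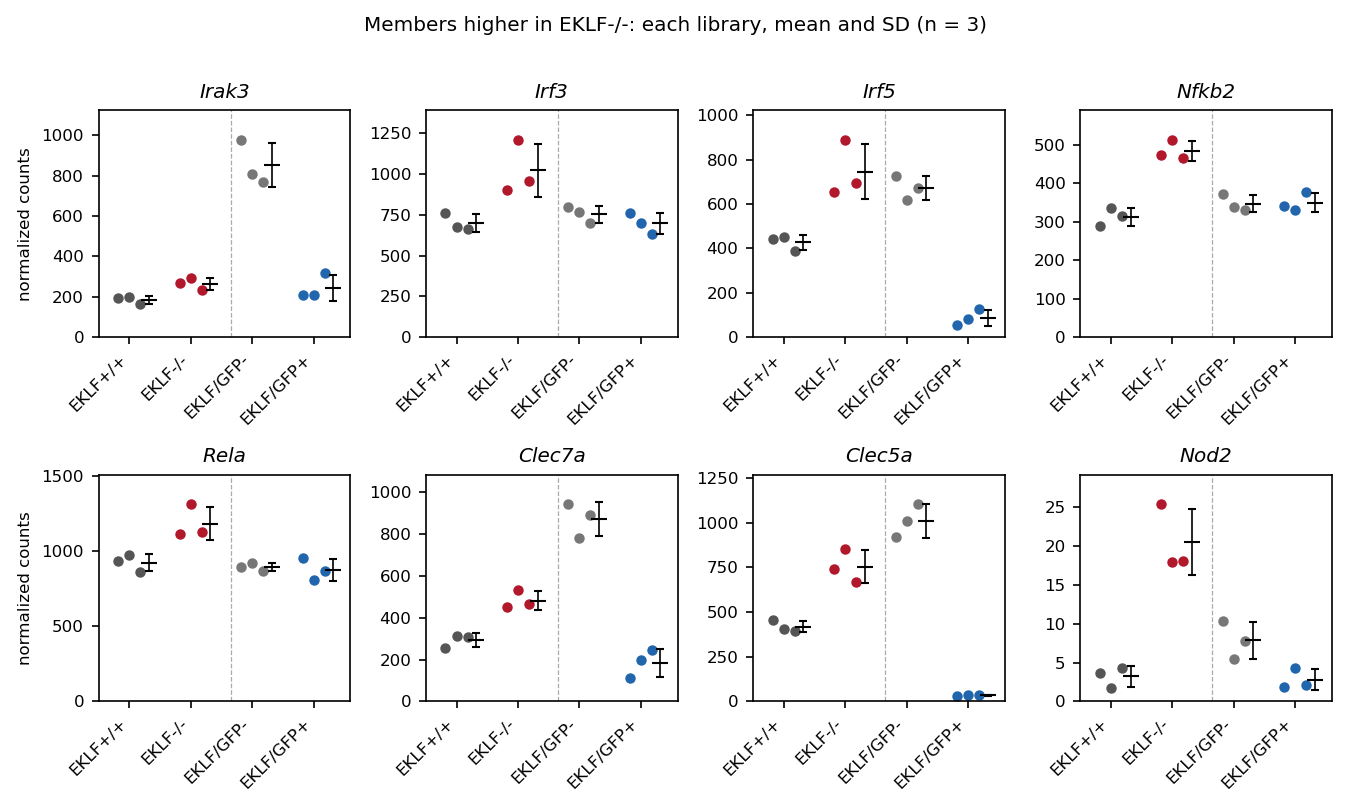
Normalized counts (vertical axis, starting at 0) of the 8 members higher in EKLF-/- are shown for each library as points, with the mean and SD (n = 3) as bars, and the dashed line separates comparisons that were scaled apart. Irf5, Clec5a, Clec7a and Irak3 are highest in EKLF-/- on the left and lowest in EKLF/GFP+ on the right.

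None of the TLRs, co-receptors, adaptors, inflammasome genes or cytokines was called in EKLF-/-. Estimates for the 9 TLRs ran from -0.61 for Tlr9 to 0.26 for Tlr2. Tlr4 had 107, 129 and 123.5 normalized counts in EKLF+/+ and 122, 139 and 139 in EKLF-/- (log2 fold change 0.15, standard error 0.16, edgeR adjusted p = 0.504). Tlr9 had 65.2, 73.1 and 82.3 normalized counts in EKLF+/+ and 69, 33.9 and 41.2 in EKLF-/- (log2 fold change -0.61, standard error 0.28, edgeR adjusted p = 0.144). EKLF+/+ and EKLF-/- libraries overlapped for all of the TLRs, and without EKLF-/- replicate 1 Tlr9 was called lower (adjusted p = 0.0229). Cd14 had 27.8, 129 and 146 normalized counts in EKLF+/+ and 158, 281.5 and 221 in EKLF-/- (log2 fold change 1.11, standard error 0.47, edgeR adjusted p = 0.121). Every EKLF-/- library was above EKLF+/+ for Cd14, and EKLF+/+ replicate 1 stood well under the others.

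Other members had larger estimates that missed the threshold. Clec4n had 24.1, 28.7 and 35.7 normalized counts in EKLF+/+ and 39, 129.7 and 53.3 in EKLF-/- (log2 fold change 1.32, standard error 0.45, edgeR adjusted p = 0.0678). Card9 had 403, 429.6 and 315 normalized counts in EKLF+/+ and 466, 895 and 585.5 in EKLF-/- (log2 fold change 0.76, standard error 0.24, edgeR adjusted p = 0.0533). In both, EKLF-/- replicate 2, the library with the highest sums of neutrophil-like, monocyte-like and macrophage-like markers, was far above every other library. The groups did not overlap for either gene, and DESeq2 called both higher (adjusted p = 0.0195 for Clec4n and 0.0138 for Card9). Without EKLF-/- replicate 2 the estimate of Clec4n was 0.62 (adjusted p = 0.14). Without EKLF-/- replicate 1 edgeR called both (0.0176 and 0.014), together with Casp1 (0.0364), Pycard (0.0301) and Nfkbia (0.0337). With all libraries, the log2 fold changes of Casp1, Pycard and Nfkbia were 0.77, 0.51 and 0.51, and they were not called. Clec4e had 26.5, 35.7 and 35.7 normalized counts in EKLF+/+ and 16.3, 24.9 and 13.1 in EKLF-/- (log2 fold change -0.85, standard error 0.31, edgeR adjusted p = 0.0792). Its EKLF-/- libraries all lay below EKLF+/+, as for Irak1 (log2 fold change -0.21), and Clec4e was called lower without EKLF-/- replicate 2 (adjusted p = 0.0265). Irf7 had 104, 183.5 and 881 normalized counts in EKLF+/+ and 156, 420.2 and 193 in EKLF-/- (log2 fold change -0.60, standard error 0.71, edgeR adjusted p = 0.549). EKLF+/+ replicate 3 was above all other libraries, and without it the estimate turned to 0.79 (adjusted p = 0.266). Il1b, at 3.62 to 22.0 normalized counts, was not tested. For Ly96, Myd88, Tirap, Ticam1, Irak4, Traf6, Nfkb1, Tnf, Nlrp3, Nod1 and Cybb, estimates in EKLF-/- lay between -0.22 and 0.37.

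Further genes of these pathways were taken from a list of 45, among them other TLRs, NF-kB kinases and oxidase subunits. In EKLF/GFP+, 28 of 43 tested were lower and 4 were higher, where 25.8% and 18.9% of all genes were, with a median log2 fold change of -1.27. Tlr11, a receptor for parasite profilin, had 0, 1.08 and 1.04 normalized counts in EKLF/GFP+ and 22.5, 11.9 and 11.1 in EKLF/GFP-, with at most 1 read in any GFP+ library. It passed the limit on low counts only through the GFP- libraries and so had to differ, which leaves 27 of 42 others lower, with a median of -1.19. Casp4, a caspase activated by cytosolic lipopolysaccharide, and Ikbke, an IkB kinase that activates IRF3, had log2 fold changes of -3.12 and -2.89. Tab3, which joins the kinase TAK1 to TRAF6, had 2377, 2457 and 2276 normalized counts in EKLF/GFP+ and 1424, 1419 and 1257 in EKLF/GFP- (log2 fold change 0.79, standard error 0.08, edgeR adjusted p = 0.00014), and Ikbkg (NEMO) and Tab1 had log2 fold changes of 0.73 and 0.52. Chuk, or IKKα, was the remaining one (log2 fold change 0.37). Ikbkb, or IKKβ, of the same kinase complex as Chuk and Ikbkg, was lower (log2 fold change -0.30, edgeR adjusted p = 0.0098).

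In EKLF-/-, 4 of 42 such genes tested were lower and 6 were higher, near the 10.6% and 9.72% of all genes, with a median of 0.0778. Among the genes called lower, Tab3, Traf3 and Ikbkg had the largest estimates, with log2 fold changes of -0.82, -0.67 and -0.61. Tab3 had 759, 854 and 900.1 normalized counts in EKLF+/+ and 529, 370.3 and 521 in EKLF-/- (edgeR adjusted p = 0.01), without overlap. Relb, the NF-kB subunit that pairs with p52, had 19.3, 33 and 27.1 normalized counts in EKLF+/+ and 64.4, 97.8 and 70.4 in EKLF-/- (log2 fold change 1.53, standard error 0.27, edgeR adjusted p = 0.00779), with all EKLF-/- libraries higher. Cyba, the oxidase subunit that pairs with the product of Cybb, and Fcer1g, the signalling chain of Dectin-2 and Mincle, had log2 fold changes of 0.95 and 0.75.

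Levels per length were available for the sorted cells as TPM. In EKLF/GFP-, 15 members had at least 10 TPM and 4 were under 1 TPM, with a median of 4.47 TPM. In EKLF/GFP+, 6 had at least 10 and 10 were under 1, with a median of 2.02. Cybb led in EKLF/GFP- at 111 ± 34.3 TPM (SD, n = 3), followed by Irak1 at 55.9 ± 14.6 and Rela at 40.3 ± 3.12. Rela and Clec7a (39.2 ± 4.39) do not differ beyond their spread in that order. In EKLF/GFP+ the order was led by Rela at 34.2 ± 9.07 TPM (SD, n = 3), followed by Irak1 at 33.9 ± 9.28 and Cybb at 32.1 ± 15.6. Rela, Irak1 and Cybb do not differ beyond their spread there. Of the TLRs, Tlr4 had the highest TPM in EKLF/GFP-, at 9.89 ± 1.52, and Tlr3 the lowest at 0.538 ± 0.0745. Il1b and Nod2 were lower still, at 0.459 ± 0.163 and 0.0408 ± 0.0138.

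Some of these levels were carried by transcripts annotated as non-coding. Of the TPM of Rela, 3.90% in EKLF/GFP+ and 3.11% in EKLF/GFP- was on coding transcripts, and the leading transcript was a retained intron. Irf7 had 15.0% and 46.1%, and Tlr4 had 44.97% and 40.3%. For Irf5, Casp1, Nlrp3, Pycard, Tlr2 and Tlr9 the coding share was over 99% in both groups. The annotation lists Clec7a as a polymorphic pseudogene, although 92.1% and 89.1% of its TPM was on coding transcripts. In all, 12 members share exon bases with a gene on the opposite strand, over 1.19% to 18.1% of their exon bases. Whether the EKLF+/+ and EKLF-/- reads were counted by strand is not given in the sources used here, so reads of these members and of their opposite-strand partners cannot be told apart there.

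The single-cell sample, from bead-purified cells, shows which classes of F4/80-selected cells held these transcripts. After clustering 3093 cells with a median of 18610 estimated counts, 8 classes could be named from fixed markers, and 3 of 14 clusters were left unnamed. The clustering used all variable genes, so levels by class are a description with no test. Levels are CPM pooled over the cells of a class, with exact Poisson intervals that cover counting error only. Of the 38 members, 31 had their highest CPM in the macrophage-like (17), monocyte-like (9) or neutrophil-like (5) class. None was highest in the erythroid-like class and none exceeded 20 CPM there. In 31 members the highest class was at least 5 times the erythroid-like class. For 14 members the intervals of the highest and second class stood apart. Summed over the members, the classes held 1802 CPM in monocyte-like, 1780 in macrophage-like and 1239 in neutrophil-like cells, against 172 in erythroid-like cells. The unnamed cluster with high Klf1 (240 cells, 144 CPM of Klf1) held 295.5. The unnamed cluster led by Tmcc2 and Ypel4 (125 cells) held 1498, with Hbb-bs at 12730 CPM, against 147200 and 234500 in the erythroid-like clusters. The last unnamed cluster (53 cells of few counts) held 1929. In the Tmcc2-led and the low-count cluster the macrophage-like list scored highest, with Adgre1 at 498.9 and 999.3 CPM and Csf1r at 582.8 and 1145.

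**Figure D3:**
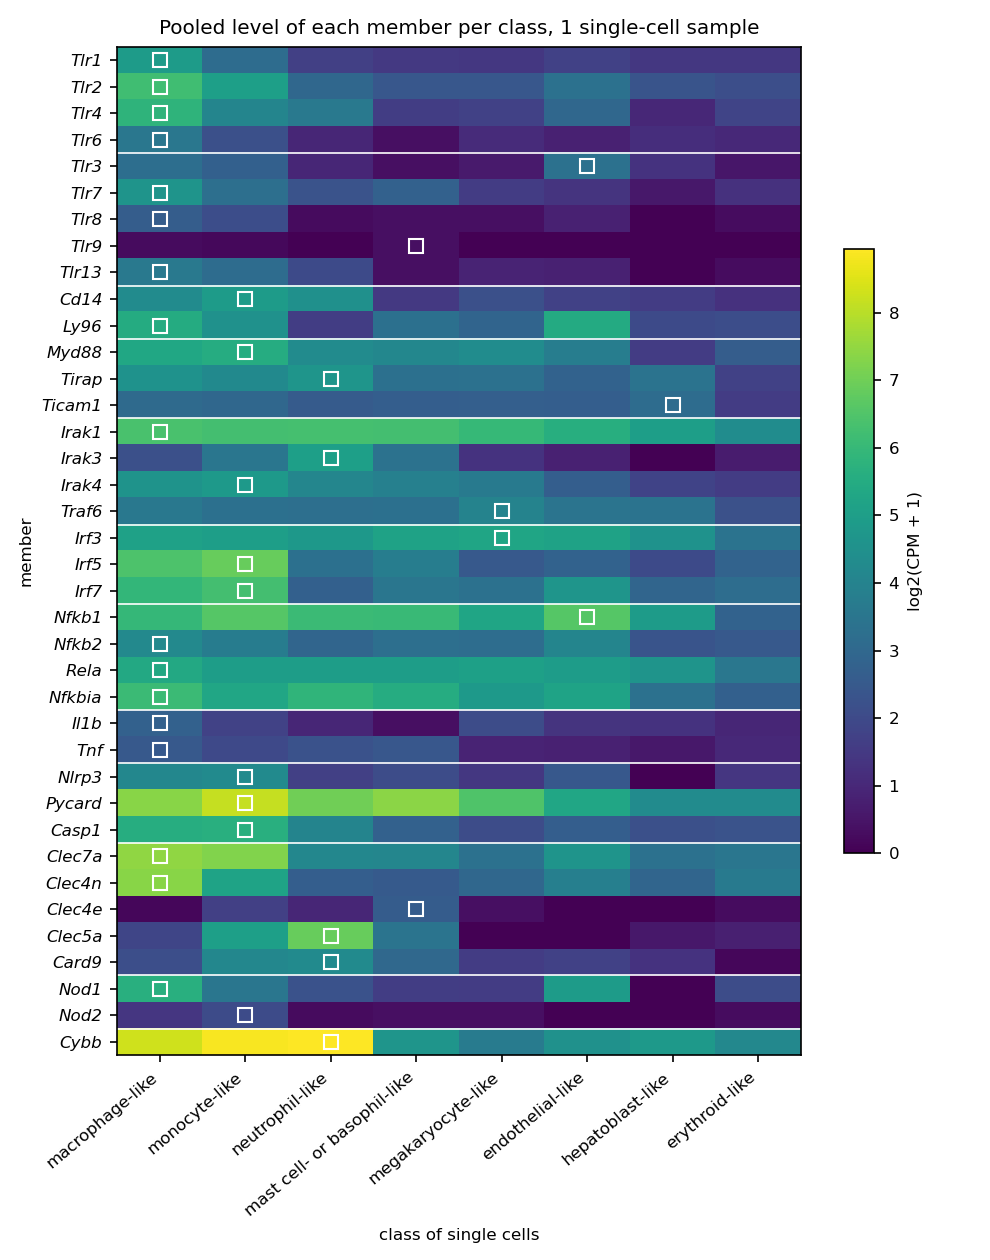
The pooled level of each member (rows, in order of role) in each named class of single cells (columns) is coloured as log2(CPM + 1), and a white square marks the class with the highest level. Of the 38 squares, 31 lie in the 3 columns at the left, and none lies in the erythroid-like column at the right.

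Of the 9 TLRs, 7 had their highest level in macrophage-like cells. Tlr4 had 54.8 CPM (95% interval 51.9 to 57.7) there, against 16 CPM in monocyte-like, 11.3 in neutrophil-like and 2.59 in erythroid-like cells. Tlr2 had 72.7 CPM (95% interval 69.5 to 76.1), against 31.9 in monocyte-like cells. Of the surface and endosomal TLRs, all but Tlr3, highest in endothelial-like cells, and Tlr9, with 9 counts in the whole sample, were highest in the macrophage-like class. Tlr3 rested on 12 counts in endothelial-like cells, at 9.13 CPM (95% interval 4.72 to 15.9). That interval overlapped the one in macrophage-like cells, 8.42 CPM (95% interval 7.34 to 9.61). The interval of Tlr8 in the macrophage-like class, 5.21 CPM (95% interval 4.37 to 6.17), overlapped that in monocyte-like cells, 3.36 CPM (95% interval 2.15 to 5). That of Tlr13, 11.3 CPM (95% interval 10.1 to 12.7), also overlapped that in monocyte-like cells, 7.99 CPM (95% interval 6.05 to 10.3). Clec4n, the lectin gene not called in EKLF/GFP+, had 162.5 CPM (95% interval 158 to 167.5) in macrophage-like and 35.5 in monocyte-like cells. Nod1 was also highest in macrophage-like cells, at 48.5 CPM (95% interval 45.9 to 51.2).

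The members called in both bulk comparisons were not found in one class. Clec5a had 114.5 CPM (95% interval 106 to 124) in neutrophil-like cells, 32.2 in monocyte-like, 2.66 in macrophage-like and 0.706 in erythroid-like cells. Irak3 had 31.7 CPM (95% interval 27.1 to 36.9) in neutrophil-like, 10.5 in monocyte-like and 3.51 in macrophage-like cells. Both genes thus led in neutrophil-like cells with intervals apart from the next class. Irf5 had 116 CPM (95% interval 108 to 124) in monocyte-like, 87.2 in macrophage-like and 8.82 in neutrophil-like cells. Clec7a had 174 CPM (95% interval 169 to 179.6) in macrophage-like, 150 in monocyte-like, 16.7 in neutrophil-like and 10.3 in erythroid-like cells. After thinning every cell to 5000 counts, which left out 55 shallower cells, Clec5a had a count in 44% (95% interval 37.2% to 50.9%) of neutrophil-like and 0.265% (95% interval 0.00671% to 1.47%) of erythroid-like cells, the latter taken as background.

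The monocyte-like class had the highest level of Cd14, Myd88, Irak4, Irf5, Irf7, Nod2 and all 3 inflammasome genes, but only for Irf5, Irf7 and Pycard was the 95% interval apart from that of the next class. Pycard had 282.5 CPM (95% interval 270.3 to 295) there. Cybb had 492 CPM (95% interval 473 to 511) in neutrophil-like, 468 in monocyte-like and 313 in macrophage-like cells, so it was shared by all of them. The 3 macrophage-like clusters also differed. The cluster led by Cd5l and Marco had 252.8 CPM of Clec7a and 229.7 of Clec4n, against 95.5 and 74.3 in the cluster led by Fcrls and Cx3cr1. The latter had more Cd14 (33.2 CPM) and Irf7 (85.8 CPM) than either of the other 2.

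Set beside the bulk values, the 5 members led by neutrophil-like cells had a median log2 fold change of -1.81 in EKLF/GFP+ and all 5 were lower. The 9 led by monocyte-like cells had a median of -1.76 over the 8 tested, with 7 lower. The 17 led by macrophage-like cells had a median of -0.88, with 11 lower, and the members not called among them were Ly96, Nfkb2, Rela, Il1b, Clec4n and Nod1. In EKLF-/- the medians were 0.51, 0.51 and 0.23, with 2 of 5, 2 of 9 (Nod2 among them) and 3 of 16 tested members higher. The leading class had an interval apart from the next class for 2 of the 5, 3 of the 9 and 9 of the 17. By the share of cells with a count after thinning, the leading class was the same for 26 of the 38 members. Card9 and Cybb, counted here with the neutrophil-like class, had their highest share in monocyte-like cells. Over all genes, 25.8% were lower in EKLF/GFP+ and 9.72% higher in EKLF-/-, and with so few members a set differs from the latter share by 1 or 2 genes. The difference between these sets of members was not tested.

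**Figure D4:**
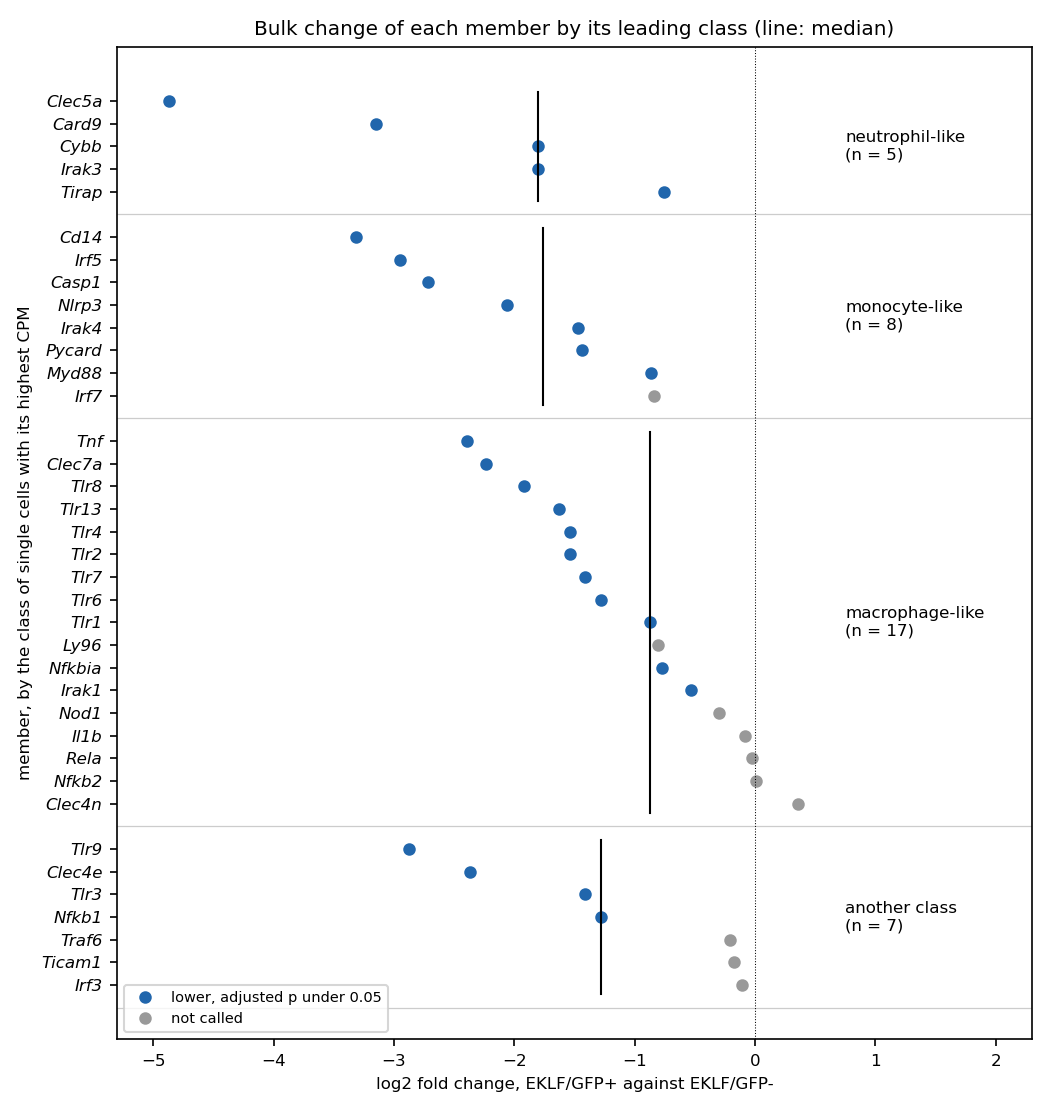
Each point is the log2 fold change of a member in EKLF/GFP+ against EKLF/GFP- (horizontal axis), sorted by the class of single cells with its highest CPM, with a vertical line at the median. Medians are -1.81 for the 5 neutrophil-like, -1.76 for the 8 monocyte-like and -0.88 for the 17 macrophage-like members, and blue marks members called lower.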

How the data were processed

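The 38 members and the lists of pathway and marker genes were chosen with earlier results of these data known. For EKLF+/+ and EKLF-/-, the authors deposited raw counts per gene from STAR alignments to mm10 and HTSeq, and 67.2% to 72.7% of the reads in these files were assigned to no gene and were left out. The 5 columns that repeat other libraries were not used. For the EKLF/GFP libraries, the authors deposited Salmon estimated counts and TPM per transcript on GRCm38, summed here per gene, and the estimated counts were rounded. Of the latter, 0.0993% to 0.114% could not be joined to a gene. A signal of normalized counts deposited by the authors served 1 alternative. Single-cell estimated counts are the authors' values from alevin, and 4.33% of those above 0 are not whole.

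Genes reaching 10 counts in 3 or more of the 6 libraries were scaled by TMM and tested two-sided with edgeR 4.0.16 (quasi-likelihood, Benjamini-Hochberg) in R 4.3.3, each comparison alone. The scripts were tested on simulated data. Alternatives used DESeq2 1.42.0, limma 3.58.1, other filters, covariates and scalings, and each library left out. Cells with at least 200 genes were clustered with Seurat 5.3.0 (4000 variable genes, 30 components, resolution 0.8), no doublet caller was run, and the classes were named from the marker lists after the clusters were seen. Promoter windows are RefSeq's. Values in every library were given for members called in EKLF-/- or in both comparisons and for up to 2 members per role with the largest change in EKLF/GFP+ (mean of 50 or more normalized counts), and other members that the text singles out were chosen after their values were seen. Of the other pathway genes, the 3 largest called changes in each direction were named, and Chuk and Ikbkb, and the members Tlr4 and Tlr9 in EKLF-/-, were added after their values were seen.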

Additional observations from a re-analysis of the deposited data

How the results depend on the processing

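Precision is limited by 3 libraries per group and by low counts for Nod2, Il1b, Tlr3 and Clec4e. With members called lower in EKLF/GFP+, the counts were 22 to 27 over all alternatives and 23 to 26 with 1 library left out, and none was called higher. In EKLF-/-, 3 to 11 members were called higher and 0 to 1 lower with 1 library left out, and the limit of a 2-fold change left 1 higher. With the other settings 6 to 10 were called higher and 0 lower. The Y-linked gene Ddx3y as a covariate gave 10 higher in EKLF-/- and 26 lower in EKLF/GFP+.

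Same-numbered replicates did not deviate together (correlations -0.005, 0.003 and 0.056 in EKLF-/- against EKLF+/+, and 0.032, -0.089 and 0.027 in the EKLF/GFP groups), so the numbers pair no samples. With the replicate number as a block, 7 members were higher and 0 lower in EKLF-/-. The calls of Irak3 (adjusted p = 0.0551), Irf3 (0.0535) and Rela (0.0799) were lost and those of Cd14 (0.0463) and Card9 (0.048) were gained. With the block, 27 were lower and 0 higher in EKLF/GFP+.

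Estimates changed sign in these cases, none of them called, and the cause was not tested. With 1 library left out in EKLF-/-, the log2 fold change ran from -0.42 to 0.14 for Tlr1, -0.11 to 0.46 for Tlr3, -0.13 to 0.10 for Tirap, -1.17 to 0.79 for Irf7 and -0.0128 to 0.15 for Tnf. In EKLF/GFP+ it ran from -0.0648 to 0.0424 for Rela, -0.0343 to 0.0657 for Nfkb2, -0.32 to 0.35 for Il1b and -0.53 to 0.0647 for Nod1. Rela was also at 0.0046 with DESeq2, 0.0043 with its size factors in edgeR and 0.46 with limma, and Nfkb2 at -0.0088 with at least 10 counts in every library and -0.21 with limma. The size factors of DESeq2 moved the median of all genes by 0.0343 in EKLF/GFP+ and -0.0106 in EKLF-/-. In single cells, 31, 31 and 32 members led in the macrophage-like, monocyte-like or neutrophil-like classes at resolutions of 0.4 and 1.2 and with a stricter limit on genes per cell.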

Other observations

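EKLF+/+ replicate 3, the library in which Irf7 was highest, was also high for other genes that interferon induces. In a list of 14 such genes, written after the value of Irf7 was seen, 12 were highest in EKLF+/+ replicate 3 among the 6 libraries. Isg15, a ubiquitin-like protein, had 1.40, 3.78 and 39.99 CPM in EKLF+/+ and 3.89, 11.3 and 4.05 in EKLF-/-. Ifit1, which binds viral RNA, had 0.841, 2.21 and 10.96 CPM in EKLF+/+ and 1.37, 3.81 and 1.51 in EKLF-/-. Summed over the list, the libraries held 98.1, 145 and 404 CPM in EKLF+/+ and 131, 202 and 136.5 in EKLF-/-. In EKLF+/+ replicate 3 the median gene was at 3.48 times the mean of EKLF+/+ replicates 1 and 2. EKLF+/+ replicate 3 was also the only EKLF+/+ library without reads of the Y-linked gene Ddx3y (998, 909 and 0 normalized counts in EKLF+/+ and 0.907, 654 and 2.01 in EKLF-/-), and it had 19030 normalized counts of Xist, the RNA of the inactive X chromosome, against 29 and 214 in EKLF+/+ replicates 1 and 2. EKLF-/- replicates 1 and 3, with 8295 and 8204 counts of Xist, held 131 and 136.5 CPM of the listed genes. Their part in the pattern was not tested.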
